A study of Mus musculus with 121 samples.

Results

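Gfi1, Irf8 and 7 genes described as repressed by Gfi1 were followed in single mouse bone marrow cells. The members were Gfi1, Irf8, Zeb2, Id2, Csf1, Egr1, Egr2, Klf4 and Gfi1b, 9 of the 23946 genes in the expression table, and all 9 were found by symbol. They were chosen by name, with earlier results of these data known. The question put to them was how each gene varied between cell states, how Gfi1 and Irf8 varied together over cells, and how the other genes differed between cells with and without Gfi1 transcript.

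The series asks how a neutropenia-associated mutation of Gfi1 affects target genes in the states that marrow cells pass on the way to the granulocyte. It holds 121 C57BL/6 cells from hindlimb marrow, enriched with beads against CD117, sorted by antibody staining and captured on the Fluidigm C1 system, which isolates single cells in a microfluidic chip. Every cell has the genotype label Gfi1-R412X/-, and the titles add HTZ. No unmutated cell was analysed here, and a gene-level value does not tell the mutant transcript from that of another allele. The cells are 46 CD11b+ GMP-P, all from 1 run name, and 75 GMP under 3 run names. Of the GMP cells, 62 belong to one run name (called other GMP here), 10 to a late July run name and 3 to a late July run name that also gives the year. The run name of the CD11b+ GMP-P cells is written in digits that can be read as the same late July date. No label names an animal or an age, so each population counts as 1 sample, and population and run cannot be told apart.

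Values are log2(TPM + 1), where TPM is a transcript level scaled by transcript length and by the cell's total. Detection of a gene means a TPM of at least 1. Cells are not replicates, so means carry the SD over cells and no test was made. Intervals are exact Clopper-Pearson intervals at 95% and cover counting error only. The authors' table gives each cell 1 of 12 state names, and together with the run names these made 21 groups, 11 of them with 3 or more cells. The median number of genes detected per cell was 2870 in CD11b+ GMP-P, 4521 in other GMP and 2779 in the late July cells, over a range of 967 to 6153. Transcript of Itgam, the CD11b gene, was present in 35 of the 46 CD11b+ GMP-P cells and in 5 of 62 other GMP cells. It was also detected in 8 of 10 late July GMP cells and in all 3 with the year, so the GMP run names differ in that antigen's transcript. Transcript of Kit, the CD117 gene, was present in 65 of 121 cells.

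Gfi1 is a zinc finger repressor that supports the neutrophil fate, and its C-terminal zinc fingers bind DNA at sites with an AATC core. It recruits the demethylase Kdm1a (LSD1) with Rcor1 and histone deacetylases through its N-terminal SNAG domain. Irf8 is an interferon regulatory factor that supports monocyte and dendritic cell development and opposes the neutrophil fate, and Gfi1 and Irf8 are often treated as opposing regulators in bipotent granulocyte and monocyte progenitors. Zeb2 is a zinc finger factor of monocyte and dendritic cells. Klf4 and the immediate early factors Egr1 and Egr2 take part in monocyte and macrophage differentiation. Id2 blocks E proteins, Csf1 is the macrophage growth factor, and Gfi1b is the close relative of Gfi1 that acts in erythroid cells and megakaryocytes.

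Stretches of member promoters that hold the core are shown because they are the DNA that a Gfi1 zinc finger could read. RefSeq promoters of build GRCm38.p6 were found for 8 of the 9 members, all but Egr1, which was not searched. The promoters each run from 250 bases before to 50 bases after a start. They were searched on both strands for AATC and for the longer AAATC and AATCAC, both of which contain AATC. Capitals mark a match on either strand, so that the core on the other strand reads GATT, and each line runs 5′ to 3′ on the strand of its gene.
Irf8: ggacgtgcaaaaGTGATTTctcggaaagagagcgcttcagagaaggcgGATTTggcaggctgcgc
Zeb2: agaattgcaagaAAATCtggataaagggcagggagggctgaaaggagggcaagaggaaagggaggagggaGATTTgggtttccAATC
Csf1: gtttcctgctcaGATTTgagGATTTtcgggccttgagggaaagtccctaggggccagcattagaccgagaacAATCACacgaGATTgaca
Egr2: tccaccggctgcAAATCgttcctggcgag
Gfi1b: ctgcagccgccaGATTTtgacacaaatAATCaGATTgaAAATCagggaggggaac

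The Irf8 stretch is chr8:120736170-120736234 on the plus strand, 188 to 124 bases before the first of its 2 listed starts. The Zeb2 stretch is chr2:45117526-45117612 on the minus strand, 170 to 84 bases before the fourth of its 4 starts. The Csf1 stretch is chr3:107760571-107760660 on the minus strand, 191 to 102 bases before the start. The Egr2 stretch is chr10:67537684-67537712 on the plus strand, 185 to 157 bases before the third of its 5 starts, and the Gfi1b stretch is chr2:28622000-28622054 on the minus strand, 72 to 18 bases before the start. In the GENCODE annotation of the same assembly (release vM21, basic set) the Zeb2, Csf1 and Gfi1b stretches overlap no gene, the Egr2 stretch lies in an intron of Egr2 downstream of its first listed start, and the Irf8 stretch lies outside Irf8 but within an intron of the overlapping locus Gm20388.

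The core is frequent. AATC stood in 73.1% of 32851 promoters of this length, AAATC in 35.9% and AATCAC in 10.4%. Within the whole windows, Csf1, Gfi1b and the fourth Zeb2 start had 4 matches to AATC, and the first Irf8 start and 3 of 5 Egr2 starts had 3, beside a median of 1 and a 95th percentile of 4 over all promoters. The windows of those 3 Egr2 starts overlap one another. The other Zeb2 starts had 0, 2 and 1, the other Egr2 starts had 2 and 0, and the other Irf8 start had 1. AATCAC stood at the first Irf8 start and in Csf1. Id2 had 1 match to AATC, Gfi1 had 1 at 1 of its 2 starts, and Klf4 had none in this window. A match is a description of the sequence and not evidence of binding.

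Gfi1 was detected in 89 of 121 cells (73.6%, interval 64.8 to 81.2). Among groups of 3 or more cells its mean was highest in Gran-1 cells of other GMP, where all 9 cells had it, at 7.11 to 9.56 with a median of 8.25 (mean 8.38 ± 0.71). Gran-2 cells of CD11b+ GMP-P followed at 7.14 ± 2.79, with 12 of 13 detected, a median of 8.39 and a highest value of 10.37. These are the states in which Gfi1 was found most evenly, and all 14 Gran-1 cells of the 3 run names had it. In the 3 Gran-1 cells of CD11b+ GMP-P the values were 1.57, 1.79 and 7.14, against 8.43 and 8.61 in the 2 late July ones, so the state name alone did not fix the level.

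In the other groups Gfi1 spread widely over cells. In the 11 MP cells the values were 0, 0.87 and 1.59 in 3 cells and 6.46 to 9.60 in the other 8. In the 32 Mono cells of other GMP it ran from 0 to 9.20 with a median of 3.84 (4.04 ± 3.31), and 24 had it. The means of cMoP (4.68 ± 4.09), Myelo-2 in CD11b+ GMP-P (4.61 ± 3.66) and in late July GMP (4.44 ± 4.23), Mono in CD11b+ GMP-P (4.49 ± 4.41) and Myelo-1 (3.57 ± 3.58) lay close together beside these spreads. Myelo-4 of CD11b+ GMP-P was lowest at 1.20 ± 2.47, with 2 of 7 cells. Down the order of the 11 group means, the step from Gran-1 to Gran-2 (1.25) was the only one larger than the smaller SD of the 2 neighbours. Gfi1 was not detected in the HSCP-1, MDP, Multi-Lin and Myelo-3 cells, which number 5 in all.

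Irf8 was detected in 77 of 121 cells (63.6%, interval 54.4 to 72.2) and was highest in the monocyte states. All 5 cMoP cells had it at 7.82 to 9.36 (8.66 ± 0.56). The 6 Mono cells of CD11b+ GMP-P all had it (8.15 ± 1.16), as did all 32 Mono cells of other GMP (7.53 ± 1.49, from 2.94 to 9.83 with a median of 7.73). So no Mono cell lacked Irf8, with or without Gfi1.

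In MP cells Irf8 spread from 0 to 8.95 with a median of 4.44 (4.99 ± 3.03). In Gran-1 it was detected in all 3 CD11b+ GMP-P cells, at 5.58, 6.31 and 7.75, in 5 of 9 other GMP cells (3.31 ± 3.31) and in neither late July cell. The Gran-1 cells of CD11b+ GMP-P thus had the lower Gfi1 in 2 of 3 cells and Irf8 in all 3. Among Gran-2 cells of CD11b+ GMP-P Irf8 was found in 3 of 13, once at 8.23 (1.36 ± 2.72). In the Myelo states means ran from 2.08 ± 2.96 in Myelo-2 of CD11b+ GMP-P down to 0.09 ± 0.15 in Myelo-4, where none of 7 cells had it, yet the single Myelo-2 cell of the late July run name with the year stood at 8.57. The steps larger than the smaller neighbouring SD were those from Gran-1 of CD11b+ GMP-P to MP (1.55) and from Myelo-1 to Myelo-4 (1.09).

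**Figure D1:**
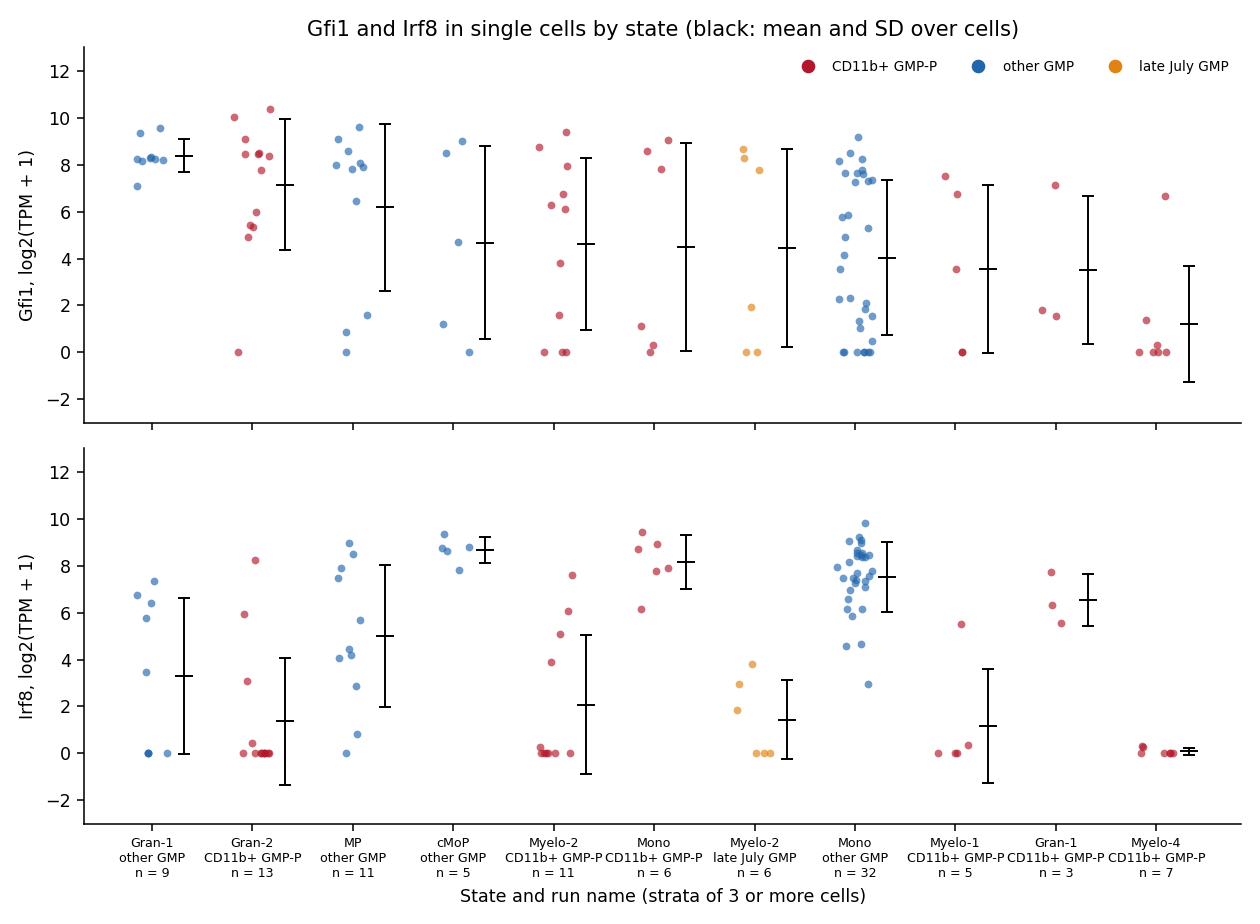
Each point is 1 cell, at its log2(TPM + 1) of Gfi1 (upper panel) or Irf8 (lower panel), by state and run name for the 11 groups of 3 or more cells, in falling order of mean Gfi1; black marks are the mean and SD over cells. Gfi1 sits at 7.11 to 9.56 in the 9 Gran-1 cells of other GMP and spreads over a wide range in most other groups, while Irf8 is above 0 in all Mono and cMoP cells.

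Zeb2 followed Irf8 over the states. It was detected in 65 of 121 cells, in 28 of 32 Mono cells of other GMP (3.69 ± 1.93), 9 of 11 MP cells (3.87 ± 2.53) and all 5 cMoP cells (3.40 ± 0.89). It was detected in 6 of 9 Gran-1 cells of other GMP (2.47 ± 2.25), 3 of 13 Gran-2 cells (1.17 ± 2.33), 2 of 11 Myelo-2 cells of CD11b+ GMP-P, and in none of the Myelo-1 and Myelo-4 cells of CD11b+ GMP-P. Klf4 had a like order with wider spread, from 5.24 ± 2.81 in Mono of CD11b+ GMP-P and 4.99 ± 2.51 in Mono of other GMP to 1.63 ± 3.14 in Gran-2, and it was not detected in the 6 late July Myelo-2 cells.

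Id2 ran the other way. Among groups of 3 or more cells it was highest in Myelo-4 (7.37 ± 3.48, 6 of 7 cells), Myelo-1 (5.15 ± 4.07) and late July Myelo-2 (5.02 ± 4.15), and was detected in 8 of 13 Gran-2 cells (4.22 ± 3.97). It was found in 5 of 32 Mono cells of other GMP (0.99 ± 2.52), 1 of 11 MP cells and none of the 6 Mono cells of CD11b+ GMP-P. Both Multi-Lin cells, at 5.85 and 10.69 (mean 8.27), and the HSCP-1 cell, at 6.52, also held it.

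Egr1, an immediate early gene, was the member detected most often, in 95 of 121 cells, and its means had no such order. They ran from 8.11 ± 2.74 in Mono of CD11b+ GMP-P to 2.62 ± 4.17 in Gran-1 of CD11b+ GMP-P, and no step between neighbours exceeded the smaller SD. Within single groups it covered nearly its whole range, as in Mono of other GMP, from 0 to 9.54.

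Over the means of the 11 groups, Pearson's r was 0.90 between Irf8 and Zeb2, 0.82 between Irf8 and Klf4, −0.87 between Irf8 and Id2 and −0.95 between Zeb2 and Id2, while for Gfi1 and Irf8 it was 0.06. These points share populations, run names and numbers of genes detected, and have no test. Within the 32 Mono cells of other GMP the same pairs were weak, at 0.16 for Irf8 with Zeb2, 0.24 for Irf8 with Klf4 and −0.12 for Zeb2 with Id2, and Irf8 with Id2 had the opposite sign at 0.20. The order thus lay between the group means, over which state, run name and genes detected vary together. It was not seen among cells of the largest group.

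**Figure D2:**
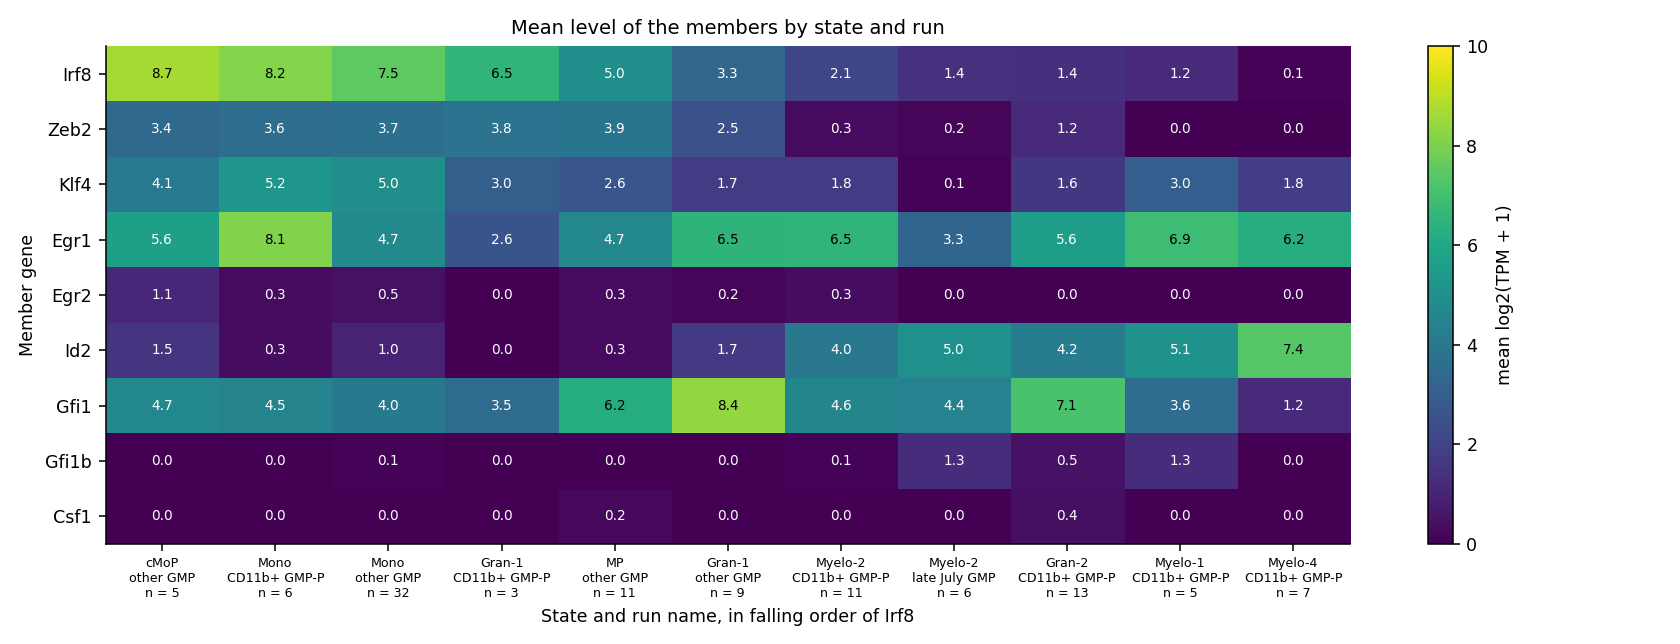
Mean log2(TPM + 1) of the 9 members (rows) in the 11 groups of 3 or more cells (columns, in falling order of Irf8), with the mean printed in each field and coded by colour from 0 to 10. Zeb2 and Klf4 are high towards the left with Irf8 and Id2 towards the right, and Egr2, Gfi1b and Csf1 are near 0 in nearly all groups.

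The remaining 3 members were rare. Egr2 was detected in 11 of 121 cells (9.09%), 9 of them among the 62 other GMP cells, at 8.91 in a Multi-Lin cell, 7.42 in the HSCP-1 cell and 1.76 to 5.68 in the others. None of the 13 Gran-2 cells of CD11b+ GMP-P had it. Csf1 was detected in 3 cells (2.48%), at 3.63 in the Multi-Lin cell that had Egr2, 2.37 in an MP cell and 5.29 in a Gran-2 cell. It was detected in 0 of 32 Mono cells of other GMP, which allows a share of up to 9.38% by the limit of 3 cells of the total (10.9% by the exact interval). Gfi1b was detected in 5 cells (4.13%), at 1.17 to 7.19, of which 3 were Myelo-1 or Myelo-2 cells, 1 a Gran-2 cell and 1 a Mono cell. At these counts no difference by state could be read for Csf1 or Gfi1b.

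Gfi1 and Irf8 were detected together in 59 of 121 cells (48.8%), Gfi1 alone in 30 (24.8%), Irf8 alone in 18 (14.9%) and neither in 14 (11.6%). The classes followed the states. Of the Gran-2 cells, 10 of 15 had Gfi1 alone and none had Irf8 alone, while of the 38 Mono cells 28 had both, 10 Irf8 alone and none Gfi1 alone. Of the 11 MP cells 7 had both, 2 Gfi1 alone and 2 Irf8 alone. The median number of genes detected was 4399 in cells with both and 1941.5 in cells with neither, and the part of this depth in the classes was not tested.

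The targets were also counted by class within each population. Among other GMP cells Zeb2 was detected in 37 of 40 cells with both, 10 of 14 with Irf8 alone and 3 of 7 with Gfi1 alone. Klf4 was detected in 31 of 40, 9 of 14 and 1 of 7 in the same order, while Egr1 was detected in 29 of 40, 13 of 14 and all 7 (6.73 ± 3.07 in the last) and Id2 in 7 of 40, 4 of 14 and 1 of 7. Among CD11b+ GMP-P cells Id2 was detected in 13 of 18 cells with Gfi1 alone and 7 of 11 with neither, but in 3 of 14 with both and 0 of 3 with Irf8 alone, an order not seen in other GMP. These classes mix states and are a description of the cells, not a comparison at matched state.

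Within a state and run name, the correlation of Gfi1 with Irf8 over cells could be taken in 8 groups of 6 or more cells, and Pearson's r was negative in all 8, with a median of −0.23. It was −0.18 in Mono of other GMP (32 cells, Spearman's rho −0.27), −0.54 in Mono of CD11b+ GMP-P (6 cells), −0.02 in MP (11 cells) and −0.29 in Gran-1 of other GMP (9 cells). In the granulocyte states of the other runs it was −0.18 in Gran-2 (13 cells), −0.28 and −0.14 in Myelo-2 of CD11b+ GMP-P (11 cells) and late July GMP (6 cells), and −0.29 in Myelo-4 (7 cells), where no cell had Irf8 at a TPM of 1. Such values are weak in data where many cells are at 0.

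The other genes give the background for these signs. In Mono of other GMP 36.5% of 8864 genes had a negative r with Gfi1 and 10.2% lay below Irf8. In Gran-1 of other GMP 57.3% were negative and 20.9% lay below Irf8, and in Mono of CD11b+ GMP-P 50.1% and 11.3%. The share of genes below Irf8 was 46.02% in MP, 41.5% in late July Myelo-2, 23.6% in Gran-2 and 15.7% in Myelo-2 of CD11b+ GMP-P, so Irf8 stood near the middle of all genes in MP and late July Myelo-2. In the same order 47.9985%, 48.7%, 44.8% and 42.3% of genes were negative. In Myelo-4 65.7% were negative, and Irf8, detected in no cell there, was not ranked. The 8 negative groups include Myelo-4. Genes negative in all 8 were not counted, so that number of groups has no all-gene background. Leaving out the 2 cells farthest from the median of Gfi1 left 6 of 8 groups negative, since r became 0.44 in Gran-1 of other GMP and 0.55 in Myelo-4. The sign in those 2 groups rested on those cells. With the number of genes detected held constant, r stayed negative in all 8 groups and was −0.28 in Mono of other GMP and −0.04 in MP.

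**Figure D3:**
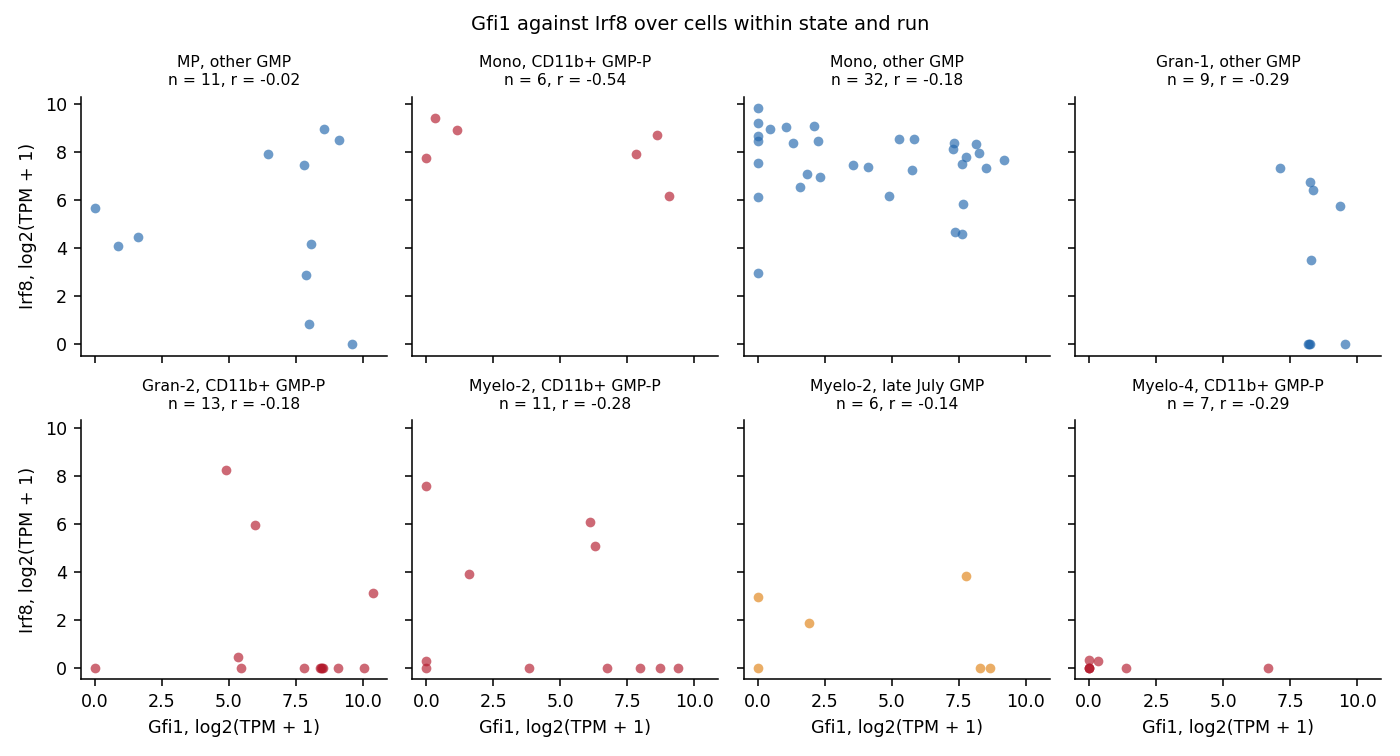
Each panel is 1 state and run name with 6 or more cells; each point is a cell at its log2(TPM + 1) of Gfi1 (horizontal) and Irf8 (vertical), with n and Pearson's r in the title. Cells high in both genes stand beside cells high in one of them in the MP panel (r = −0.02), and no panel shows a tight inverse line.

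Other members had no shared sign. With Gfi1, Id2 and Egr1 were negative in 4 of 8 groups each, Zeb2 in 3 of 7 and Klf4 in 6 of 8, though by Spearman's rho Klf4 was negative in 2. Zeb2 had r = 0.37 with Gfi1 in Mono of other GMP, above 95.7% of genes there, and 0.68 in Mono of CD11b+ GMP-P.

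Egr1 had the lowest value with Gfi1 of any member, in Gran-1 of other GMP (r = −0.70, rho −0.87, 9 cells), and was singled out after its values were seen. Only 1.17% of the 9742 genes there lay below it. The cell with the highest Gfi1, at 9.56, had the lowest Egr1, at 2.004, and the cell next in Gfi1, at 9.34, had Egr1 at 5.53, while the highest Egr1, at 9.66, stood beside a Gfi1 of 8.15. Without the 2 cells farthest from the median of Gfi1, r was −0.51 over 7 cells. In Gran-2 of CD11b+ GMP-P it was −0.53 over 13 cells (rho −0.40), with 4.26% of genes below it, and −0.42 without the 2 farthest cells. In Mono of other GMP it was −0.10, and in Mono of CD11b+ GMP-P it was 0.53 and became −0.23 over the 4 cells left after the same step, so the pair was not shown to vary together in every state.

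Cells with and without Gfi1 could be compared in the 2 groups that had 3 or more cells on each side, Mono of other GMP (24 with, 8 without) and Myelo-2 of CD11b+ GMP-P (8 with, 3 without). Differences are means of log2(TPM + 1) in cells with Gfi1 minus cells without, over genes that 10% or more of the group's cells had. In neither group did a target's values separate the 2 kinds of cell.

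In Mono of other GMP, 30.2% of 8864 genes were higher by 1 or more in cells with Gfi1 and 5.96% lower by 1 or more, with a median difference of 0.52 and 71.1% of genes above 0. Of the 8 members other than Gfi1, 5 passed the filter and none differed by 1 or more in either direction, 3 being higher and 2 lower with a median of 0.13. Cells with Gfi1 also had more genes detected (median 5001, range 3837 to 6153) than cells without (4295.5, range 1951 to 4671). With adjustment for that number the differences were −0.93 for Irf8, −1.36 for Egr1 and −0.68 for Klf4, so that Egr1 then passed 1 in the lower direction. Only the 5 members were adjusted, so no all-gene share or median stands beside these values. The adjusted values of Zeb2 and Id2 are not given here.

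Irf8 in these Mono cells ran from 4.58 to 9.09 with a median of 7.59 where Gfi1 was present, and from 2.94 to 9.83 with a median of 8.58 where it was not. The groups overlapped, and the means differed by −0.26 (7.47 ± 1.21 against 7.73 ± 2.24), with 19.7% of genes below that value. That small difference rested on 1 cell without Gfi1, which had 1951 genes detected, Irf8 at 2.94, and Zeb2, Klf4, Egr1 and Id2 all at 0. Without it, over 24 against 7 cells, the Irf8 difference was −0.94, beside an all-gene median of 0.38.

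Zeb2 was detected in 23 of 24 Mono cells with Gfi1 (95.8%, interval 78.9 to 99.9) and 5 of 8 without (62.5%, interval 24.5 to 91.5). Its means were 3.88 ± 1.52 and 3.14 ± 2.91, a difference of 0.74, or 0.29 without the shallow cell. Klf4 was detected in 21 of 24 and 6 of 8 (5.02 ± 2.34 against 4.90 ± 3.15), Egr1 in 17 of 24 and 7 of 8 (4.70 ± 3.45 against 4.84 ± 3.06), and Id2 in 4 of 24 and 1 of 8. Without the shallow cell the differences were −0.57 for Klf4, −0.83 for Egr1 and 0.27 for Id2. Then 2 of the 5 members lay above 0 and 3 below, and their median was −0.57, beside 5822 of 8864 genes higher and an all-gene median of 0.38. The members that failed the filter were Egr2, in 2 of 24 and 1 of 8 cells, Gfi1b, in 0 of 24 and 1 of 8, and Csf1, in no cell.

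In Myelo-2 of CD11b+ GMP-P, 46.1% of 5077 genes were higher by 1 or more in cells with Gfi1 and 18.3% lower, and the median was 0.85. Cells with Gfi1 again had more genes detected (median 2480.5 against 1898). The same 5 members passed the filter, 2 with a difference of 1 or more upwards and 1 downwards, and their median was −0.40. Irf8 was 0 in 5 of the 8 cells with Gfi1 and 3.90, 5.08 and 6.07 in the others, and was 0, 0.28 and 7.59 in the 3 without. Egr1 was 0.45 and 2.82 in 2 of the cells with Gfi1 and 7.68 to 10.83 in the other 6, against 0.61, 1.43 and 10.66 without, a difference of 3.18 that ran from 1.37 to 6.39 when single cells were left out. Id2 differed by 1.17, Klf4 by −1.58, where 1 of the 3 cells without Gfi1 stood at 8.82 and the others at 0, and Zeb2 by −0.40. With 3 cells on one side, single cells weigh heavily in these values.

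**Figure D4:**
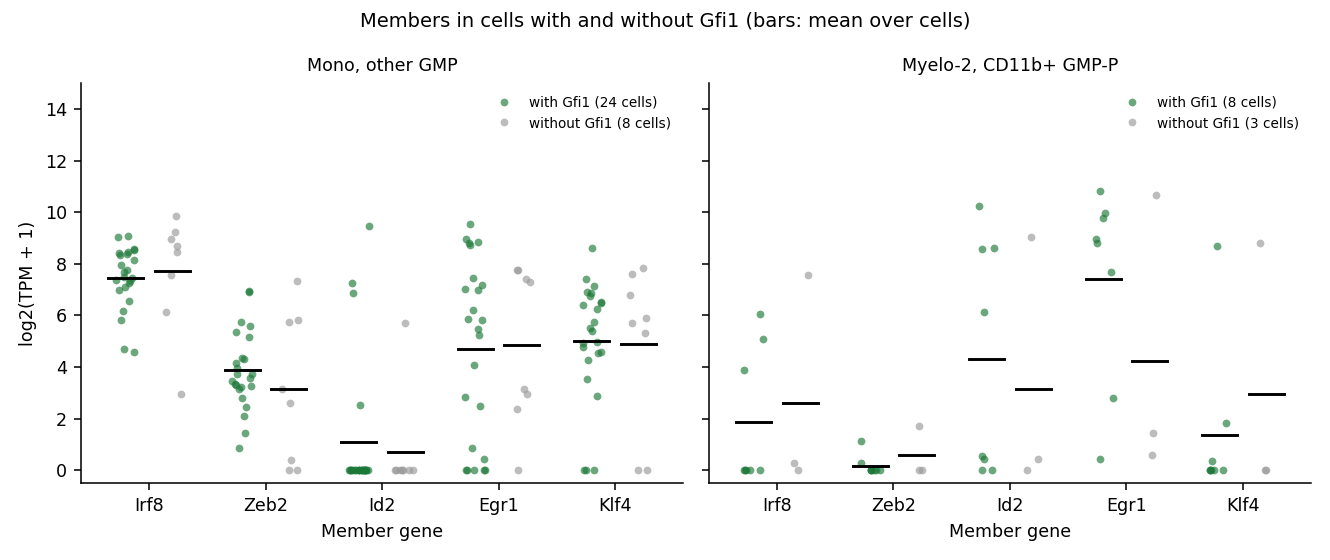
Each point is 1 cell at its log2(TPM + 1) of the 5 members that passed the filter, in cells with Gfi1 (green) and without (grey), for Mono cells of other GMP (left) and Myelo-2 cells of CD11b+ GMP-P (right); bars are means over cells. The 2 kinds of cell overlap for every member, and 1 grey Mono cell lies low in all 5.

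**Figure D5:**
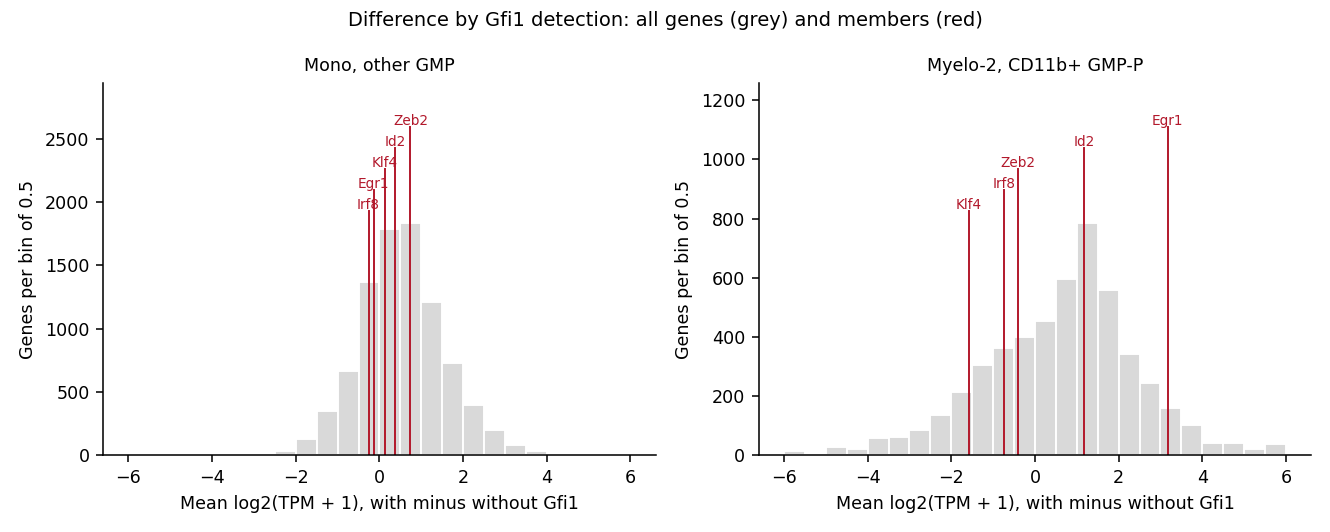
The histogram counts genes by their difference in mean log2(TPM + 1), cells with Gfi1 minus cells without, in bins of 0.5, and red lines mark the 5 members. In Mono cells all 5 lie between −0.26 and 0.74, inside the bulk of genes, whose median is 0.52.

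The machinery through which Gfi1 represses was compared in the same Mono cells. Of 14 listed corepressors and partners 11 passed the filter, 9 higher and 2 lower in cells with Gfi1, with a median of 0.55, beside 71.1% of all genes higher and an all-gene median of 0.52. Hdac1, a histone deacetylase, stood at 6.53 against 3.29 (difference 3.24), Kdm1a at 3.01 against 0.80 (2.21), Hdac2 at 1.26 higher and U2af1l4, a splicing factor that binds Gfi1, at 1.16 higher. Of 12 further genes described as repressed by Gfi1, 9 passed, 7 higher and 2 lower, with a median of 0.44. Without the shallow cell, described above, the split was 5 to 4 and the median 0.77, beside 5822 of 8864 genes higher and a median of 0.38. Hoxa9 (2.43 against 0.71) and Meis1 (2.07 against 0.39), homeobox factors of progenitors, differed most, and both were higher where Gfi1 was present. E2f6, a member of the E2F family, was higher by 0.90.

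The partners of the other members gave small counts. Of the Id factors and E proteins 4 passed and all 4 were higher, with a median of 0.70 (71.1% of all genes were higher, with a median of 0.52), led by the E proteins Tcf12 (1.003), Tcf3 (0.73) and Tcf4 (0.67). Of the Egr factors and their Nab corepressors 2 passed, Egr1 at −0.14 and Nab1 at 0.36, and without the shallow cell their median went from 0.11 to −0.38. The 7 members of the Klf family list passed, 5 higher and 2 lower (median 0.53), with Klf10 lowest at −1.18.

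Of 12 partners of Irf8 and genes it is described to activate, 9 passed, 5 higher and 4 lower, with a median of 0.13. Of all genes 71.1% were higher, with a median of 0.52. Ctss, a lysosomal cathepsin, stood at 6.602 with Gfi1 and 8.62 without (−2.01), while Ly86, a partner of a Toll-like receptor homologue, differed by 1.42 and Irf1 by 1.04, and Cybb, the catalytic subunit of the phagocyte oxidase, by −0.89. Without the shallow cell 3 were higher and 6 lower (median −0.40), beside 5822 of 8864 genes higher and a median of 0.38.

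Lineage genes also differed between the 2 kinds of Mono cell. Of 9 granulocyte genes that passed, 8 were higher with Gfi1, beside 71.1% of all genes (median 1.01, and 0.85 without the shallow cell), led by Lcn2 (2.42), the granulocyte factor Cebpe (1.81) and Cebpa (1.57). Of 9 monocyte genes 6 were lower and 3 higher, with a median of −0.30, where 71.1% of all genes were higher. Without the shallow cell 8 were lower (median −0.65), where 5822 of 8864 genes were higher (median 0.38). The lower ones included Ctss, the chemokine receptor Ccr2 (−1.69) and the transglutaminase subunit F13a1 (−1.60), while Ly86 was higher by 1.42. Klf4, Csf1r, Spi1, Ly86, Ctss and Cx3cr1 stand in more than 1 list, and Irf8, Klf4, Egr1, Egr2 and Id2 are members that also stand in a list. Summed over the neutrophil progenitor markers, 8 of 11 were higher with Gfi1 and the TPM per cell had a median of 42755 (range 25328 to 71118) against 25237 (15257 to 47935), with Ngp and Ltf at 0. Over the monocyte markers, 2 of 8 were higher and the median was 1420 (258 to 3891) against 2358 (1365 to 4539). Basophil and mast markers summed to a median of 296 against 2.06 (6 of 7 higher, with Cpa3 under a TPM of 1 in every cell and Fcer1a at 0) and stem markers to 219 against 71.5 (5 of 5 higher). Sums of T and NK markers (2582 against 1223, 1 of 4 higher) and of B markers (12.8 against 0, 1 of 5 higher) were also higher. Dendritic, erythroid and megakaryocyte, and macrophage markers had a median sum of 0 on both sides. These marker counts had no detection filter, and 71.1% of all genes that passed it were higher. The part of these marker levels in the members' differences was not tested.

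In Myelo-2 cells of CD11b+ GMP-P the lists were shorter. Of all genes there 66.7% were higher with Gfi1, with a median of 0.85. Of the corepressors 4 of 5 were higher (median 0.87), and of the further genes described as repressed by Gfi1 3 of 4, with Ets1 at 8.40 against 3.41 (4.99). The granulocyte genes there were 5 higher and 6 lower (median −0.36), unlike those of Mono cells, and that contrast between states was not tested. Each of these means rests on 3 cells without Gfi1.

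The genes most like Gfi1 over the 11 group means, among 6569 genes detected in at least 20% of all cells, were Fam117b (r = 0.90), Rpain (0.89), B230118H07Rik (0.88), Arih2 (0.86) and Atl2 (0.85). Those most like Irf8 were Clec7a (0.98), Pld4 (0.96), F13a1 (0.96), Pkig (0.96) and Prpf6 (0.95), of which Clec7a, a lectin receptor, went from 4.77 in cMoP to 0 in Myelo-4. Fam117b stood at 2.27 in Gran-1 of other GMP and 2.12 in Gran-2, the 2 groups highest in Gfi1, against 0.91 in MP.

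Over the 32 Mono cells of other GMP and 7398 genes, Spearman's rho with Gfi1 was highest for Gpbp1 (0.76), Ndufb9 (0.73), Usp11 (0.65), Cdk13 (0.63) and Ergic1 (0.63) and lowest for Cebpb (−0.63), Gria3 (−0.60), Ucp2 (−0.57), Gm2a (−0.56) and Ftl1 (−0.56). Cebpb encodes a C/EBP factor of myeloid cells. With Irf8 it was highest for Btaf1 (0.61), Npc2 (0.60), Gapt (0.60), Prkab1 (0.58) and S100a10 (0.58) and lowest for Mtfmt (−0.58), Kif23 (−0.55), Polr3e (−0.54), 2810025M15Rik and Etfb (both −0.51). No member was in these lists. The cells share their run name and differ in the number of genes detected, and the highest and lowest of 7398 genes are given as ranks only.

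The same state could be compared between populations in 2 states, a comparison chosen after the values were seen. In Mono cells, CD11b+ GMP-P (6 cells) minus other GMP (32 cells), 17.5% of 9152 genes were higher by 1 or more and 18.8% lower, and of the 7 members that passed only Egr1 differed by 1 or more. Egr1 ran from 2.97 to 10.72 with a median of 8.63 in CD11b+ GMP-P and from 0 to 9.54 with a median of 5.64 in other GMP, a difference of 3.37 that lay above 99.2% of genes. Gfi1 differed by 0.45, Irf8 by 0.62, Klf4 by 0.24, Zeb2 by −0.12 and Id2 by −0.64. The groups overlapped for all of them.

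In Myelo-2 cells, CD11b+ GMP-P (11 cells) minus late July GMP (6 cells), 15.3% of 6455 genes were higher by 1 or more and 23.7% lower. Egr1 was again the member that differed most, at 6.54 ± 4.26 against 3.25 ± 3.69 (3.29, above 99.7% of genes). Klf4 was higher by 1.71, and Id2 and Gfi1b differed by −1.02 and −1.14, the last through 1 late July cell at 7.19. Gfi1 (0.16) and Irf8 (0.65) were close beside their spread. Both comparisons share the run of CD11b+ GMP-P, so population and run cannot be told apart in either. In the Myelo-2 comparison both run names can be read as the same late July date.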

How the data were processed

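Expression values are the authors' deposited log2 values, log2(TPM + 1) per gene and cell, and were used as they stand; TPM keeps no depth, so the number of genes detected per cell stands in for it. The submitters' processing notes name Bowtie2, RSEM and mm9; the roles and versions of these are not given there. A column of the deposited state table gives the authors' state name for each cell. The method of assignment was not given in the sources used here.

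Cells were matched by the names in their labels and split by state and run name. Computed from these values were means, SDs over cells, shares at a TPM of 1 or more, differences by Gfi1 detection where 3 or more cells stood on each side, and correlations over 6 or more cells. The filter kept genes detected in at least 10% of a group's cells. With 1 sample per population no test was made. Code for differences was tested on permuted values of Mono cells of other GMP with known shifts added. Code for correlations was tested on simulated data.

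All 9 members are named. Of each gene list, up to 4 kept genes with the largest difference in Mono cells of other GMP are named (1 result is not reported here), and for Gfi1 and Irf8 the 5 genes most and least like them. Members and lists were chosen with earlier results of these data known. Promoters came from RefSeq (GRCm38.p6) and were searched by exact letters, and the stretches shown were placed with GENCODE vM21. Python 3.11.15, numpy 2.4.6, pandas 2.3.3 and scipy 1.17.1 were used.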

Additional observations from a re-analysis of the deposited data

How the results depend on the processing

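Other settings were tried for the differences by Gfi1 detection, the correlations of Gfi1 with Irf8, their levels, and the shares of Gfi1 cells with each target, 270 alternative values in all; the other correlations, gene lists, likeness ranks and population comparisons had none beyond those given beside them. A move was counted when it passed 0.5 on the log2 scale, 0.2 for a correlation or 1.5 times for a count. In Mono cells of other GMP the Irf8 difference of −0.26 became −0.99 as a difference of medians, −0.93 adjusted for genes detected and −0.94 without cells under 2000 genes, and leaving out single cells gave −0.94 to 0.0413. The count of members higher by 1 or more went from 0 to 1 (Zeb2, 1.03 and 1.67) with Gfi1 called at a TPM of 10 and with a pseudocount of 0.1, and adjusted for genes detected Egr1 went to −1.36. The adjustment had no all-gene background in either group. In Myelo-2 cells of CD11b+ GMP-P the Irf8 difference was −1.35 at a Gfi1 TPM of 10, 0.0919 with runs pooled and −1.77 adjusted for genes detected, and ran from −2.05 to 1.74 without single cells. Members there numbered 2 lower with a pseudocount of 0.1, 1 higher with 10, 0 lower by medians, and 1 higher and 0 lower with runs pooled. Id2 turned to −0.32 with runs pooled, −2.07 adjusted for genes detected and −0.41 to 4.10 without single cells, Klf4 ran from −3.05 to 1.36, and Egr1 from 1.37 to 6.39 (7.46 by medians, 1.64 adjusted). Negative correlations of Gfi1 with Irf8 numbered 1 of 2 groups over cells with both genes and 5 of 6 with runs pooled. The sign turned in MP over cells with both (0.37), in Gran-1 of other GMP without the 2 farthest cells (0.44) or single cells (−0.52 to 0.0224), and in Myelo-4 (0.55, and 0.65 with runs pooled). The causes were not tested. Without cells under 2000 genes, Myelo-2 of CD11b+ GMP-P had none without Gfi1 and gave no value. No paired analysis was possible because the numbers shared between groups in the labels are the numbers of single cells in a capture run and no test was made.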
